A study of Mus musculus with 48 samples.

Results

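Chemokines are small secreted proteins that guide migrating cells, and the genes described here are those whose symbols name a chemokine or a chemokine receptor. The symbol rule found 62 genes among the 24466 of the deposited table, 39 ligands and 23 receptors, and the rule uses no measured value. The quantity is the ratio of H3K27me3 to input at each gene, from chromatin immunoprecipitation sequencing (ChIP-seq). Adult hepatocytes and mature beta cells both came from mice of 8 weeks. The beta cells were sorted for a red fluorescent protein (RFP) reporter of insulin, and so hold only cells in which that reporter was on. Definitive endoderm, the germ layer from which liver and pancreas form, was sorted at embryonic stage e8.25 by the surface antigen ENDM1, and it is taken here as the baseline. Embryos came from B6C3F1 females, superovulated with gonadotropins and mated with C3H, Pdx1-eGFP or Ins-RFP males. The labels name no knockout in any of the 3 cell types.

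The labels give 2 ChIP and 2 input libraries for each cell type, and the table gives 1 pooled value, so no value below has a replicate error, no test across samples was possible and no p-value is given. Read depth is unknown. The authors quantile-normalized the columns, which gives each the same distribution (median 0.711, upper quartile 1.27), so a ratio ranks a gene among the genes of 1 cell type and says nothing of the total amount of the mark. Differences are of log2(ratio + 0.0711), where the added constant is the median ratio divided by 10. A gene is called higher or lower when the difference reaches 1, a 2-fold difference on that scale. The constant makes the differences of genes with low ratios smaller. In these bulk profiles a change in the share of cells that carry the mark and a change in every cell cannot be told apart.

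H3K27me3 is written by Polycomb repressive complex 2 and is typical of genes held silent, often at promoters rich in CpG dinucleotides. Chemokines are classed as CC, CXC, CX3C or XC by the spacing of their first cysteines, and they signal through G protein-coupled receptors of matching classes. Inflammatory chemokines are induced by cytokines in many tissues, liver included, whereas homeostatic chemokines are made steadily to place lymphocytes in lymphoid organs, gut and skin. Most signalling receptors belong to leukocytes. Atypical receptors bind chemokines without G protein signalling and mostly remove or transport them. Hepatocytes are a known source of CXC ligands in the inflamed liver, and CXCL12 with its receptors CXCR4 and ACKR3 acts in organ formation as well as in immunity.

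As a set, the chemokine genes stood in the upper part of the H3K27me3 range in each of the cell types. Their median ratio was 1.19 in hepatocytes, 1.20 in beta cells and 1.21 in endoderm, against 0.711 for all genes. At or above the 75th percentile of all genes were 29 of 62 in hepatocytes (46.8%, against 25% of all genes), 29 in beta cells (46.8%, against 25% of all) and 30 in endoderm (48.4%, against 25.7% of all). From the lower to the upper quartile, the members spanned ratios of 0.778 to 1.83 in hepatocytes, 0.691 to 2.39 in beta cells and 0.542 to 2.05 in endoderm. The highest member had 5.54 in hepatocytes (Cxcr4), 5.98 in beta cells and 5.43 in endoderm (Cxcl14 in both). The lowest were Cxcl1 with 0.0221 in hepatocytes, Ccl17 with 0.107 in beta cells and Ccl12 with 0.0407 in endoderm.

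The similar medians hide different genes. Across the 62 members, the Spearman correlation was 0.12 between hepatocytes and endoderm (0.47 over all genes), 0.25 between beta cells and endoderm (0.36 over all genes) and 0.25 between hepatocytes and beta cells (0.49 over all genes). These coefficients describe single pooled profiles, and neighbouring or near-identical genes among the members are not independent. In all, 11 members were at or above the 75th percentile in every cell type, 18 in 2 of them, 19 in 1 and 14 in none. Over all genes 8.66% were so in every cell type, 14.4% in 2, 21.0% in 1 and 56.0% in none. Those high throughout were Ccl1, Ccl4, Ccl11, the 3 Ccl21 copies, Cxcl2, Cxcl5, Cxcl14, Ccr6 and Cxcr4. Under the median of all genes in every cell type were Cxcl15, Cxcl17, Cxcr6 and Ackr4.

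**Figure D1:**
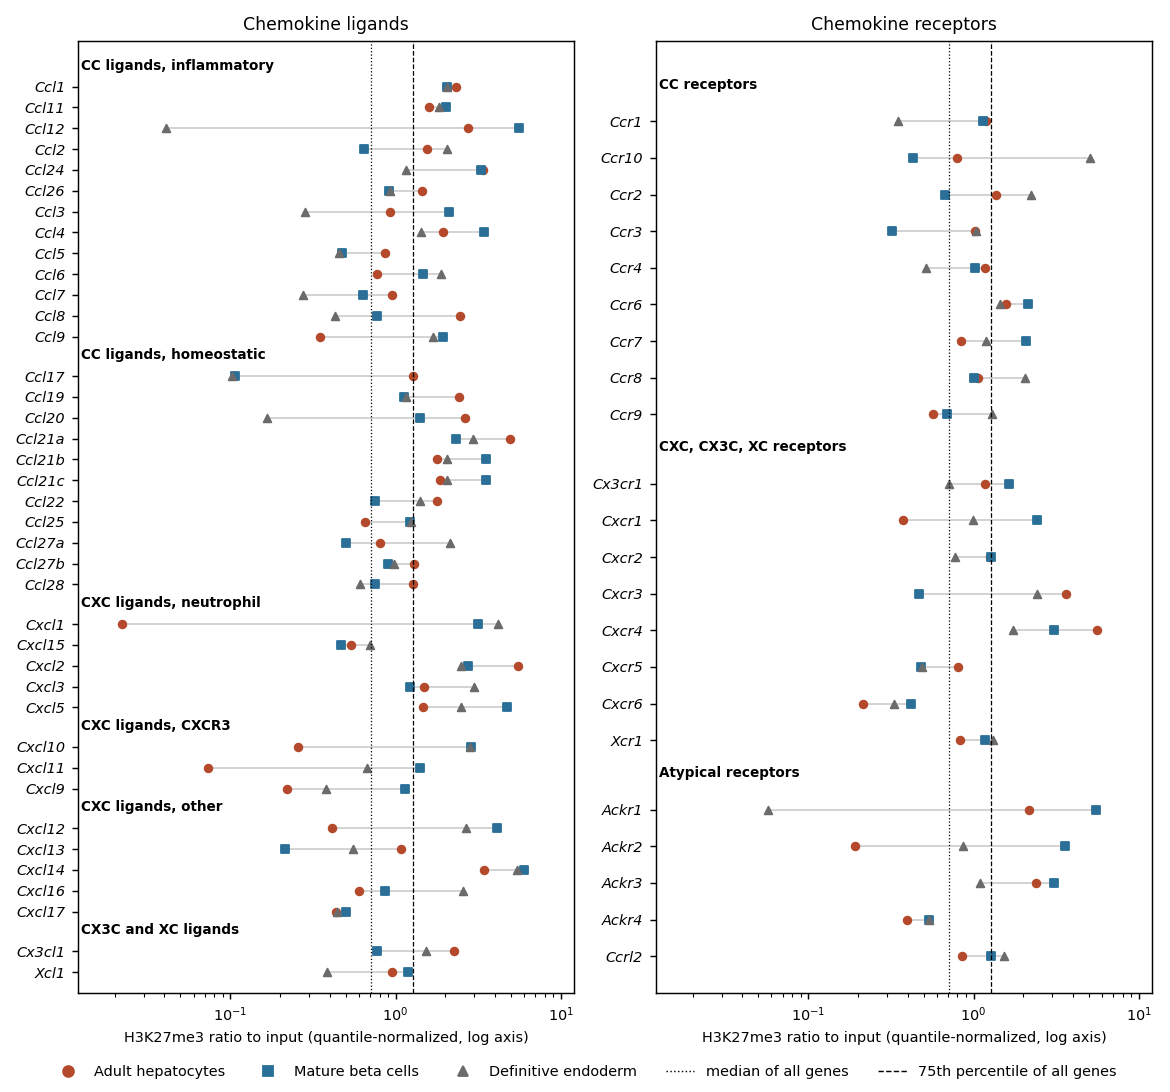
Quantile-normalized H3K27me3 ratio to input (log axis) of 61 chemokine ligand and receptor genes in adult hepatocytes (circles), mature beta cells (squares) and definitive endoderm (triangles), 1 pooled value each. Dotted and dashed lines are the median (0.711) and the 75th percentile (1.27) of all genes. Long grey lines mark genes such as Cxcl1, low in hepatocytes alone, and Ccl12 and Ackr1, low in endoderm alone.

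Few members had CpG-rich promoters. RefSeq sequences (build GRCm38.p6, 250 bases before to 50 after the start) were found for 46 of the 62 members and for 17410 genes of the table. A promoter was called CpG-rich when at least 55% of its bases were G or C and its CpGs reached 0.6 of the number its base composition predicts. Some genes have more than 1 start and so more than 1 window. Such a gene was called CpG-rich if any window passed, and its CpG figures are from the window with the most CpGs. Only 6 of the 46 were CpG-rich (13.0%), against 44.3% of all 17410: Ccl21b, Ccl25, Cx3cl1, Cxcl12, Cxcl14 and Cxcr4. The 250 bases before the start are printed for 6 members on which the comparisons below turn, 5′ to 3′ with each CpG in capitals. Ccl12 and Ackr1 had the lowest ratios in endoderm. Cxcl1 and Cxcl10 were much lower in hepatocytes than elsewhere. Cxcl12 and Cxcr4 are a CpG-rich ligand and receptor pair.
Ccl12 (chr11:82101595-82101844, forward strand): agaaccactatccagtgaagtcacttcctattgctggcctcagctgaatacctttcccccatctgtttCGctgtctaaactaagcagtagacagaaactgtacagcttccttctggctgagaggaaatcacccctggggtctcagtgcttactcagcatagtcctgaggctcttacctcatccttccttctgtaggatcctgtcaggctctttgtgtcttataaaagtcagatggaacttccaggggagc
Ackr1 (chr1:173333504-173333753, reverse strand): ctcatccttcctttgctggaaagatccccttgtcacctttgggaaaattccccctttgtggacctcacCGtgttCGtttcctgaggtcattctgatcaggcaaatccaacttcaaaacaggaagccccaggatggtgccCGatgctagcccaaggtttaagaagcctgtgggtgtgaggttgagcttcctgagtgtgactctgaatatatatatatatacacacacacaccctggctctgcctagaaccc
Cxcl1 (chr5:90890995-90891244, forward strand): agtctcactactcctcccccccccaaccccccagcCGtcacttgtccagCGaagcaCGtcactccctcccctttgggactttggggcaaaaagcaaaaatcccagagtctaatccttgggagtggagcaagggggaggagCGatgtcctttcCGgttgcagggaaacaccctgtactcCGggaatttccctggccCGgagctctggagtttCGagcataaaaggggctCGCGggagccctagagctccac
Cxcl10 (chr5:92348890-92349139, reverse strand): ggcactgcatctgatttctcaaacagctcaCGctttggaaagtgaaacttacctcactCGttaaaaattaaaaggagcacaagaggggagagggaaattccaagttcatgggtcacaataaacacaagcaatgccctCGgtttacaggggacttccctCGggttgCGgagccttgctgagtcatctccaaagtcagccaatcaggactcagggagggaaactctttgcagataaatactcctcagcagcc
Cxcl12 (chr6:117168285-117168534, forward strand): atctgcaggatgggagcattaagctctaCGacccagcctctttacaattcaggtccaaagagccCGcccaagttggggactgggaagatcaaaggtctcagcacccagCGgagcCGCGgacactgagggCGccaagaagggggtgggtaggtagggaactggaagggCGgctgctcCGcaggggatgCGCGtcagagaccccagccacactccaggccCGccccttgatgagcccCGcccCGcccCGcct
Cxcr4 (chr1:128592300-128592549, reverse strand): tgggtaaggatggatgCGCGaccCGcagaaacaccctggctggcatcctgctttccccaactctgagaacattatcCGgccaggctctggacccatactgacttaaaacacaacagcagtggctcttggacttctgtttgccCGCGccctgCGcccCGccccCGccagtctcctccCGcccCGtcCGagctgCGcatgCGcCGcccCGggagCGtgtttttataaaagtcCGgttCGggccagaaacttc

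The number of CpGs in these windows was 1 for Ccl12, 3 for Ackr1, 5 for Cxcl10, 10 for Cxcl1, 14 for Cxcl12 and 19 for Cxcr4. The 6 CpG-rich members had median ratios of 2.02 in hepatocytes, 3.30 in beta cells and 1.90 in endoderm, against 1.17 in hepatocytes, 1.18 in beta cells and 1.01 in endoderm for the 40 other members. All 7713 CpG-rich genes had medians of 0.51 in hepatocytes, 0.53 in beta cells and 0.58 in endoderm, below those of the 9697 others (0.94 in hepatocytes, 0.96 in beta cells and 0.85 in endoderm). By median the CpG-rich members were thus more marked than the other members, while CpG-rich genes in general were less marked than other genes. The contrast did not hold gene by gene. In hepatocytes 4 of the 6 were at or above the 75th percentile, against 42.5% of the other members and 16.5% of all CpG-rich genes. Cxcl12 (0.412) and Ccl25 (0.655) were under the median of all genes there. CpGs reached 1.17 of the predicted number at Ccl21b but 0.236 at its copy Ccl21a, which is not CpG-rich yet was high in every cell type. How far the medians rest on Ccl21b was not tested. With 6 genes, of which Ccl21b has near-identical copies, the contrast is a description.

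**Figure D2:**
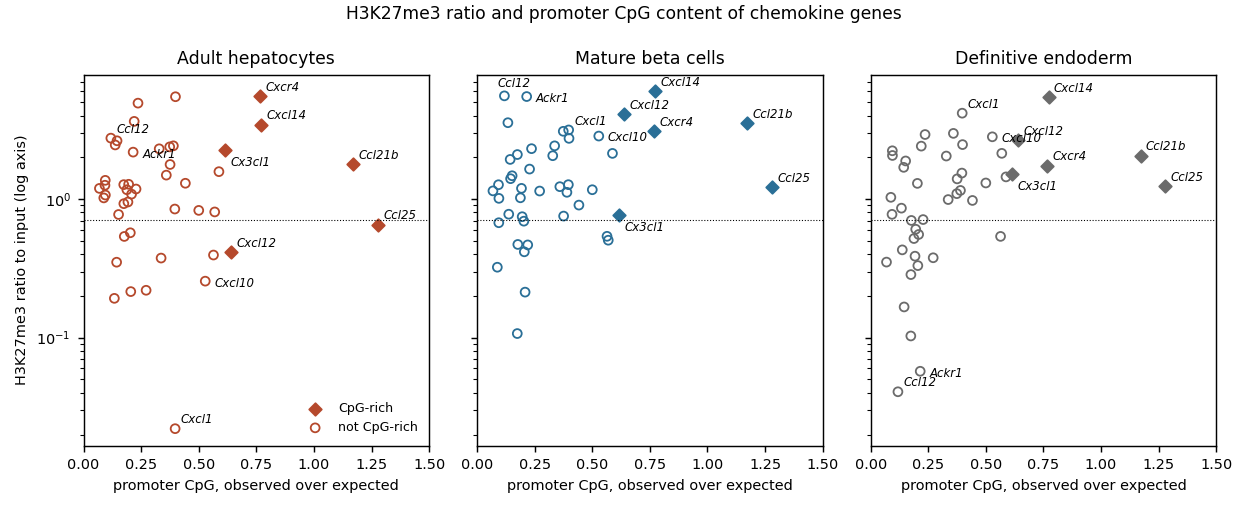
H3K27me3 ratio to input (log axis) of the 46 members with a promoter sequence, against the CpG count of the promoter divided by the count its base composition predicts, for adult hepatocytes, mature beta cells and definitive endoderm. Filled diamonds are the 6 CpG-rich promoters and open circles the other 40, and the dotted line is the median of all genes (0.711). In endoderm all 6 diamonds lie above that line, whereas Ccl12 and Ackr1 lie far under it.

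Hepatocytes were compared with endoderm first, to ask how the mark at chemokine genes differs at the hepatic end of development. Of the 62 members, 15 were higher in hepatocytes (24.2%, against 12.8% of all genes) and 12 were lower (19.4%, against 13.3%), with 35 under the threshold. The median difference was -0.01, and over all genes it was -0.03. The share past the threshold was thus larger among the members in both directions, and their median stayed near that of all genes. With each column divided by its most frequent ratio, a scaling that moves the median of all genes to 0.38, 24 members were higher and 8 lower. Of all genes 21.5% were then higher and 7.79% lower. Over the whole table, 16.7% of genes without a CpG-rich promoter were higher and 12.3% lower, against 4.21% higher and 13.4% lower among CpG-rich genes. The part of promoter class in the members' counts was not tested.

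Of the 6 lowest differences, 4 were of CXC ligands. Of 13 CXC ligands, 5 were lower in hepatocytes than in endoderm and 1 was higher (13.3% and 12.8% over all genes). Their median difference was -0.74. After division by the most frequent ratio 5 were lower and 2 higher (7.79% and 21.5% over all genes). Cxcl1, a neutrophil attractant that acts on CXCR2, had a ratio of 0.0221 in hepatocytes against 4.16 in endoderm (log2 difference -5.51). That places it at percentile 1.57 of hepatocyte genes and 96.8 of endoderm genes. Cxcl2, its neighbour with the same receptor, went the other way, with 5.47 in hepatocytes against 2.47 in endoderm (1.12). The other CXCR2 ligands, Cxcl3 and Cxcl5, were under the threshold, with 1.49 and 1.46 in hepatocytes against 2.98 and 2.48 in endoderm.

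The interferon-induced ligands Cxcl9, Cxcl10 and Cxcl11, which attract T cells through CXCR3, all had low ratios in hepatocytes. Cxcl10 had 0.256 in hepatocytes against 2.81 in endoderm (-3.14). Cxcl11 had 0.0733 in hepatocytes against 0.674 in endoderm (-2.37). Cxcl9 was low in both, with 0.220 in hepatocytes against 0.377 in endoderm (-0.62). Their receptor gene Cxcr3 was instead near the top of the hepatocyte range, at 3.63 in hepatocytes against 2.41 in endoderm, both above the 90th percentile. Cxcr3 is X-linked, and high ratios were shared by 45 other X-linked genes listed by hand. At or above the 75th percentile were 45 of them in hepatocytes and 41 in endoderm (25% and 25.7% of all genes). Their median ratios were 2.13 in hepatocytes and 1.88 in endoderm. The part of the chromosome in the Cxcr3 level was not tested.

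Cxcl12, a ligand of stromal cells and vessels that directs progenitor and blood cell movement, had 0.412 in hepatocytes against 2.65 in endoderm (-2.50). Its signalling receptor Cxcr4 had the highest member ratio of hepatocytes, 5.54 against 1.74 in endoderm (1.63), although its percentile among all genes differed by only 12.8 points (98.1 in hepatocytes against 85.3 in endoderm). Ackr3, which binds the same ligand and clears it, had 2.38 in hepatocytes against 1.09 in endoderm (1.07). Cxcl16, a membrane-bound ligand of CXCR6, had 0.603 in hepatocytes against 2.56 in endoderm (-1.96), and its receptor gene Cxcr6 was low in both at 0.215 in hepatocytes and 0.331 in endoderm. The epithelial ligand Cxcl14 was high in both, at 3.45 in hepatocytes and 5.43 in endoderm (-0.65).

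Of 24 CC ligands, 8 were higher in hepatocytes and 3 were lower (12.8% and 13.3% over all genes), with a median difference of 0.51. After division by the most frequent ratio 12 were higher and 1 lower (21.5% and 7.79% over all genes). Among 13 inflammatory CC ligands, 5 were higher without that division (12.8% over all genes). Ccl12, a mouse monocyte attractant that acts on CCR2, had 2.75 in hepatocytes against 0.0407 in endoderm (4.66), the highest difference of the set. Ccl8, which acts on CCR8 in mice, had 2.46 in hepatocytes against 0.430 in endoderm (2.33). Ccl24, an eotaxin that attracts eosinophils through CCR3, had 3.36 in hepatocytes against 1.15 in endoderm (1.49). Ccl7 (1.57), a monocyte attractant, and Ccl3 (1.48) were the others higher in hepatocytes. Lower were Ccl9 (0.350 in hepatocytes against 1.69 in endoderm, -2.07) and Ccl6 (0.774 in hepatocytes against 1.88 in endoderm, -1.21), neighbouring rodent ligands of CCR1.

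Among 11 homeostatic CC ligands, 3 were higher in hepatocytes and 1 was lower (12.8% and 13.3% over all genes). Ccl20, which draws CCR6-bearing cells to mucosa, had 2.63 in hepatocytes against 0.167 in endoderm (3.51). Ccl17, a CCR4 ligand of dendritic cells, had 1.27 in hepatocytes against 0.103 in endoderm (2.95). Ccl19, a CCR7 ligand of lymph nodes, lay just past the threshold (1.02), and the mucosal ligand Ccl28 just short of it (0.996). The skin ligand Ccl27a was lower, with 0.807 in hepatocytes against 2.14 in endoderm (-1.33).

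Among the 23 receptors, 5 were higher in hepatocytes (21.7%, against 12.8% of all genes) and 4 were lower (17.4%, against 13.3%). After division by the most frequent ratio 9 were higher and 2 lower (21.5% and 7.79% over all genes). Ackr1, the Duffy antigen receptor that red cells and venules use to bind and carry inflammatory chemokines, had 2.18 in hepatocytes against 0.0572 in endoderm (4.13). Ccr1, a receptor of monocytes and neutrophils, had 1.19 in hepatocytes against 0.351 in endoderm (1.58), and Ccr4, a receptor of helper and skin-homing T cells, was the other CC receptor past the threshold upwards (1.07). Ccr10, the receptor for CCL27 and CCL28 on skin and mucosal lymphocytes, had 0.790 in hepatocytes against 5.10 in endoderm (-2.58). Ackr2, a scavenger of inflammatory CC chemokines, had 0.192 in hepatocytes against 0.860 in endoderm (-1.82). Cxcr1 (-1.25) and the gut-homing receptor Ccr9 (-1.09) were the other receptors below the threshold.

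Beta cells were set against the same endoderm profile, so the endoderm value of each gene enters both comparisons. Of 62 members, 14 were higher in beta cells (22.6%, against 14.1% of all genes) and 10 were lower (16.1%, against 15.1%). The count of lower members was thus near the background. The median difference was 0.14, and -0.01 over all genes. With each column divided by its most frequent ratio, 24 members were higher and 7 lower, and the median of all genes was again 0.38. Of all genes 23.5% were then higher and 9.63% lower.

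The highest differences were again of genes with low ratios in endoderm. Ccl12 had 5.55 in beta cells against 0.0407 in endoderm (5.65), and Ackr1 had 5.49 in beta cells against 0.0572 in endoderm (5.44). Both were above the 98th percentile of beta cell genes. Ccl20 had 1.40 in beta cells against 0.167 in endoderm (2.63). Ccl3, a macrophage product that acts on CCR1, had 2.09 in beta cells against 0.285 in endoderm (2.60), and its neighbour Ccl4 had 3.42 in beta cells against 1.43 in endoderm (1.22). Unlike in hepatocytes, Ccl17 was as low in beta cells (0.107) as in endoderm (0.103). CC ligands as a class had 6 of 24 higher in beta cells and 2 lower (14.1% and 15.1% over all genes). Their median difference was 0.10. Ccl27a was lower, with 0.505 in beta cells against 2.14 in endoderm (-1.94). So was Ccl2, with 0.646 in beta cells against 2.06 in endoderm (-1.57). Scaling by the most frequent ratios gave 9 CC ligands higher and 2 lower (23.5% and 9.63% over all genes).

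Cxcl1, Cxcl10, Cxcl11 and Cxcl12, which were under the median in hepatocytes, were at or above the 75th percentile in beta cells. Of 13 CXC ligands, 1 was higher in beta cells than in endoderm and 3 were lower (14.1% and 15.1% over all genes). Their median difference was 0.14. After division by the most frequent ratio 4 were higher and 1 lower (23.5% and 9.63% over all genes). Cxcl1 had 3.15 in beta cells against 4.16 in endoderm (-0.39), Cxcl10 had 2.85 in beta cells against 2.81 in endoderm (0.02), and Cxcl12 had 4.11 in beta cells against 2.65 in endoderm (0.62). Cxcl9 was higher, with 1.14 in beta cells against 0.377 in endoderm (1.44). The B cell attractant Cxcl13 (0.213 in beta cells against 0.555 in endoderm, -1.14), Cxcl3 (1.23 in beta cells against 2.98 in endoderm, -1.23) and Cxcl16 (0.865 in beta cells against 2.56 in endoderm, -1.49) were lower.

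Of 5 atypical receptors, 3 were higher in beta cells and none was lower. Over all genes 14.1% were higher and 15.1% lower. Ackr2 had 3.55 in beta cells against 0.860 in endoderm (1.96), and Ackr3 had 3.08 in beta cells against 1.09 in endoderm (1.44). Of 10 CC receptors, 4 were lower in beta cells and 1, Ccr1, was higher (1.53). Ccr10 had 0.429 in beta cells against 5.10 in endoderm (-3.37). Ccr2, a receptor of monocytes, had 0.675 in beta cells against 2.23 in endoderm (-1.62). Ccr3, a receptor of eosinophils, had 0.322 in beta cells against 1.03 in endoderm (-1.48). With each column divided by its most frequent value, the CC receptors split into 3 lower and 3 higher (9.63% and 23.5% over all genes). Among the other receptors, Cxcr1 (1.23) and Cx3cr1, a fractalkine receptor of monocytes and microglia (1.13), were higher. Cxcr3 had 0.467 in beta cells against 2.41 in endoderm (-2.20). Cxcr3 is X-linked, and of 45 other X-linked genes listed by hand 32 were lower in beta cells and 0 higher, with a median of -1.42; the part of the chromosome in the Cxcr3 difference was not tested.

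**Figure D3:**
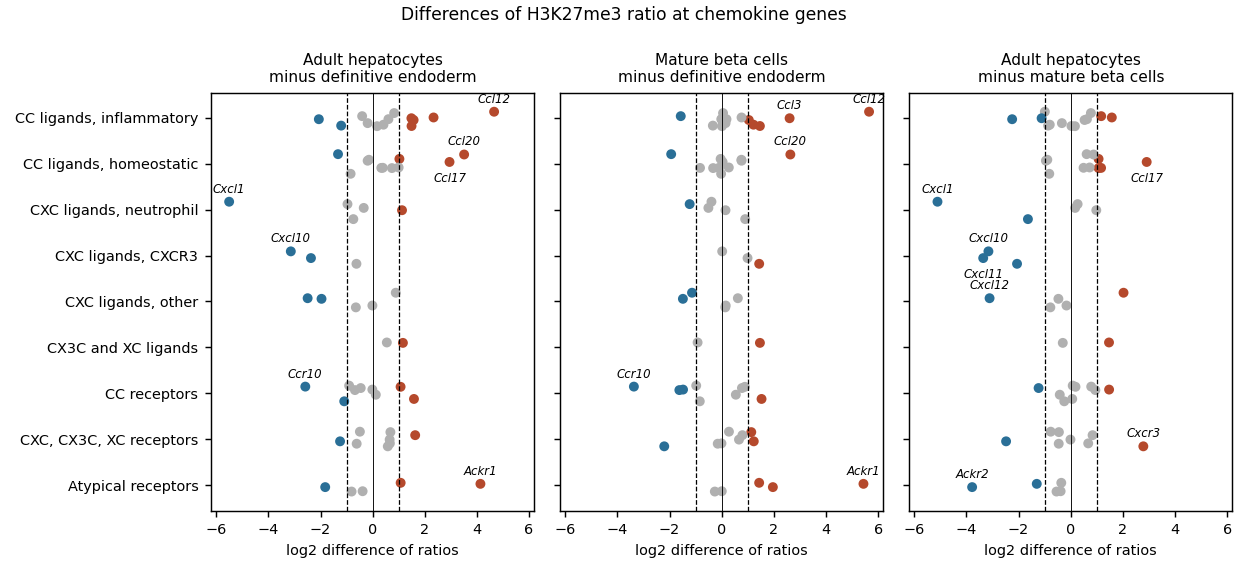
Difference of log2(ratio + 0.0711) for 61 of the 62 members, grouped by role, in hepatocytes minus endoderm, beta cells minus endoderm, and hepatocytes minus beta cells. Red and blue points are members at or past a difference of 1 (dashed lines), and vertical scatter within a row only separates points. Cxcl1 lies at -5.51 in the first panel and -5.11 in the third, and Ccl12 and Ackr1 lie above 4 in the first panel and above 5 in the second.

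Hepatocytes and beta cells were then set against each other. Hepatocytes had the higher ratio at 10 members (16.1%, against 13.1% of all genes) and the lower ratio at 12 (19.4%, against 12.5%), with a median of -0.09 beside -0.04 over all genes. CXC ligands made up 6 of the 12 lower members and 1 of the 10 higher ones. This class has 13 members, and over all genes 12.5% were lower and 13.1% higher. Cxcl1 had 0.0221 in hepatocytes against 3.15 in beta cells (-5.11). The CXCR3 ligand genes followed, with Cxcl11 at 0.0733 in hepatocytes against 1.41 in beta cells (-3.36), Cxcl10 at 0.256 in hepatocytes against 2.85 in beta cells (-3.16) and Cxcl9 at 0.220 in hepatocytes against 1.14 in beta cells (-2.06). Cxcl12 had 0.412 in hepatocytes against 4.11 in beta cells (-3.11). Cxcl5 had 1.46 in hepatocytes against 4.70 in beta cells (-1.64). Among receptors, Ackr2 had 0.192 in hepatocytes against 3.55 in beta cells (-3.78). Cxcr1, a neutrophil receptor, had 0.375 in hepatocytes against 2.42 in beta cells (-2.48). Ackr1 (-1.30) and Ccr7, the lymph node homing receptor (-1.23), were the other receptors lower in hepatocytes, and Ccl9 (-2.25) and Ccl3 (-1.12) were the CC ligands lower there.

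CC ligands made up 6 of the 10 members higher in hepatocytes and 2 of the 12 lower ones. This class has 24 members, and over all genes 13.1% were higher and 12.5% lower. Ccl17 had 1.27 in hepatocytes against 0.107 in beta cells (2.91), and Ccl8 had 2.46 in hepatocytes against 0.777 in beta cells (1.57). Ccl2, the main monocyte attractant, had 1.54 in hepatocytes against 0.646 in beta cells (1.17), and Ccl22, the other CCR4 ligand, had 1.78 in hepatocytes against 0.754 in beta cells (1.16). Ccl19 and Ccl21a were each higher by 1.07. Cx3cl1, the membrane-bound ligand fractalkine, had 2.25 in hepatocytes against 0.768 in beta cells (1.47), and Cxcl13 had 1.08 in hepatocytes against 0.213 in beta cells (2.02). Ccr3 (1.47) and Cxcr3 (2.78) completed the group. In this pair 39 of the 45 other X-linked genes had a higher ratio in hepatocytes and 0 a lower one (median 1.58), and their part in the Cxcr3 difference was not tested.

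Of the 62 members, 42 passed the threshold in at least 1 comparison (67.7%, against 45.0% of all genes) and 20 in none. Xcl1, the lymphotactin that attracts dendritic cells through XCR1, was higher than in endoderm in both adult cell types, with 0.952 in hepatocytes and 1.19 in beta cells against 0.387 in endoderm. Among the 20 without a call were genes high in every cell type, such as Ccl1, a CCR8 ligand, with 2.30 in hepatocytes, 2.05 in beta cells and 2.04 in endoderm. Others were low throughout, such as Cxcl17, a mucosal ligand, with 0.438 in hepatocytes, 0.499 in beta cells and 0.442 in endoderm. The remaining ones were Ccl5, Ccl11, Ccl21b, Ccl21c, Ccl25, Ccl26, Ccl27b, Ccl28, Cxcl14, Cxcl15, Ccr6, Ccr8, Cxcr2, Cxcr5, Cxcr6, Xcr1, Ackr4 and Ccrl2.

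Many members lie beside each other in the genome. In the RefSeq gene order, 39 of the 62 fell into 10 runs in which at most 3 other genes of the table separate neighbours, and 7 runs held 3 or more members. The 3 CXCR3 ligands form a run, and all 3 were lower in hepatocytes than in beta cells, with differences of -3.36 to -2.06. The run of Ccl22, Cx3cl1 and Ccl17 stood the other way, with all 3 higher in hepatocytes, with differences of 1.16 to 2.91. Their ratios ranged from 1.27 to 2.25 in hepatocytes and from 0.107 to 0.768 in beta cells.

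Other runs held unlike neighbours. Between Cxcl15 (0.537) and Cxcl2 (5.47), Cxcl1 had 0.0221 in hepatocytes. Between Ccl11 (1.83) and Ccl8 (0.430), Ccl12 had 0.0407 in endoderm. The run from Ccl5 to Ccl4, which also holds Ccl9, Ccl6 and Ccl3, reached the 75th percentile of all genes at 1 of 5 in hepatocytes, 4 in beta cells and 3 in endoderm. Ccl21b and Ccl21c have nearly identical sequences, and their values could not be told apart (1.78 and 1.85 in hepatocytes, 3.52 and 3.50 in beta cells, 2.05 and 2.05 in endoderm). Reads of the Ccl21, Ccl27 and Ccl19 copies may be shared between them, and the authors' counting of such reads is not given in the sources used.

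**Figure D4:**
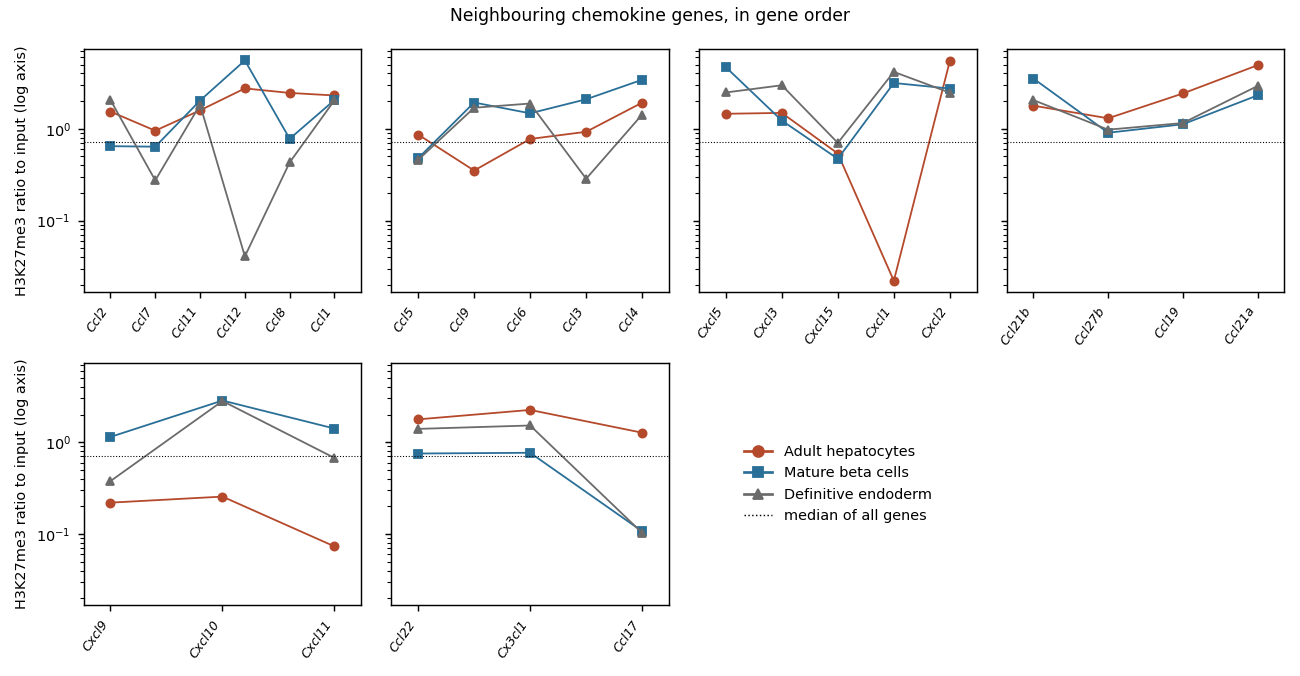
H3K27me3 ratio to input (log axis) at 6 runs of 3 or more neighbouring chemokine genes, drawn in gene order with no scale of distance, for adult hepatocytes (circles), mature beta cells (squares) and definitive endoderm (triangles). Lines only join neighbours, and the dotted line is the median of all genes (0.711). Hepatocytes lie lowest at all of Cxcl9, Cxcl10 and Cxcl11, and highest at all of Ccl22, Cx3cl1 and Ccl17.

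Ligands were also set beside their receptors. Of 33 known pairs of the set, both genes were at or above the 75th percentile in 4 pairs in hepatocytes, 7 in beta cells and 6 in endoderm. Single members reached it at 46.8% to 48.4%, but a share of single genes is no baseline for both genes of a pair. No share of pairs over all genes was computed, so the pair counts are not read as high or low. Pairs that share a gene are not independent. In beta cells the pairs with both genes high included Cxcl12 with Cxcr4 (4.11 and 3.07) and with Ackr3 (4.11 and 3.08). In hepatocytes the same ligand was under the median (0.412) while both receptors were high. Ccl20 and Ccr6 were both high in hepatocytes (2.63 and 1.58) and beta cells (1.40 and 2.13), and in endoderm the ligand alone was low (0.167 and 1.44). Both genes of a pair were under the median in 2 pairs in hepatocytes, 5 in beta cells and 4 in endoderm, again without a background share of pairs. Among them were Ccl2 and Ccr2 in beta cells (0.646 and 0.675), which were both high in hepatocytes (1.54 and 1.36) and endoderm (2.06 and 2.23).

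Genes that act around the chemokines stood at different levels. The 20 leukocyte signalling genes, among them kinases, exchange factors and regulators of leukocyte migration, had median ratios of 1.15 in hepatocytes, 1.21 in beta cells and 1.00 in endoderm, close to those of the members. The 21 signalling genes shared by most cells, such as G protein subunits and arrestins, had 0.47 in hepatocytes, 0.46 in beta cells and 0.54 in endoderm, under the median of all genes. Of the 23 cytokine, cytokine receptor and transcription factor genes that induce chemokines, 6 were lower in hepatocytes than in endoderm and 2 were higher, with a median of -0.17 (13.3% lower and 12.8% higher over all genes). Nfkbia, the NF-kB inhibitor that NF-kB itself induces, had 0.05 in hepatocytes against 0.75 in endoderm (-2.81). The tumour necrosis factor receptor gene Tnfrsf1a had 0.20 in hepatocytes against 1.24 in endoderm (-2.25). Irf1, an interferon regulatory factor gene, had 0.18 in hepatocytes against 0.91 in endoderm (-1.95), while Irf3 was under the threshold (-0.86). The 2 higher genes, named after their values were seen, were the cytokine genes Il17a (1.58) and Il6 (1.24).

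Motifs of inflammatory transcription factors, and TATAAA, which is not one of them, were searched in the same 300-base promoters. A gene was counted if any of its windows held the motif. On either strand, the NF-kB motif was in 13 of 46 member promoters (28.3%, against 10.7% of all 17410), TATAAA in 14 (30.4%, against 14.3%), TGANTCA, the AP-1 motif, in 8 (17.4%, against 8.43%) and GAAA repeated after any 2 bases, the interferon response motif, in 3 (6.52%, against 3.91%). The members with the NF-kB motif included Cxcl1, Cxcl2, Cxcl3, Cxcl10 and Ccl20. Cxcl1 and Cxcl2 share the motif and stand at opposite ends of the hepatocyte range (0.0221 and 5.47). A match is a stretch of letters and not a bound site.

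The labels of the profiles were checked with lists of marker genes, on the reading that a marker carries little of the mark where it is active. The 10 hepatocyte markers had a median ratio of 0.21 in hepatocytes, against 1.38 in beta cells and 0.73 in endoderm, and the 10 beta cell markers had 4.46 in hepatocytes, 0.39 in beta cells and 5.74 in endoderm. Some of them, named after their values were seen, went against that reading: Ins1, an insulin gene, had 1.38 in hepatocytes, 1.56 in beta cells and 0.05 in endoderm, and Neurod1 had 4.18 in hepatocytes, 1.65 in beta cells and 6.15 in endoderm, so both were above the 75th percentile in beta cells. The 10 endoderm markers did not set endoderm apart, with 1.26 in hepatocytes, 1.26 in beta cells and 1.22 in endoderm. Against endoderm, 5 of them were lower and 4 higher in hepatocytes, and 3 lower and 2 higher in beta cells. Foxa1 went against that reading, with 1.78 in hepatocytes, 6.35 in beta cells and 72.6 in endoderm. So did Foxa2 (0.68 in hepatocytes, 0.18 in beta cells, 1.98 in endoderm). Sox17 was lowest in endoderm (7.05 in hepatocytes, 4.16 in beta cells, 1.42 in endoderm), yet still above the 75th percentile there (79.0). These genes were named after their values were seen. The identity of the endoderm profile rests on its label. The 14 leukocyte markers, of cells that express most chemokine receptors, had medians of 1.02 in hepatocytes, 1.19 in beta cells and 1.13 in endoderm, with 4, 7 and 5 at or above the 75th percentile in those cell types. Endothelial markers had 1.03 in hepatocytes, 1.01 in beta cells and 0.88 in endoderm, and stromal markers had 1.36 in hepatocytes, 1.92 in beta cells and 1.39 in endoderm. The part of such cells in the members' differences was not tested.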

How the data were processed

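The deposited table gives, per the labels and file headers, H3K27me3 relative to input, quantile-normalized by the authors, in 1 pooled column each for adult hepatocytes, mature beta cells and definitive endoderm. All deposited values were above 0 and were read as linear ratios. The submitters' processing notes list Bowtie2 2.1.0, bedtools and the mouse build mm9. The region measured per gene, any constant added and the way libraries were combined are not given in those sources. The 36 H3K9me3 libraries were not used. The values of 1 member are not reported here, though it enters the counts and medians. Spaces after gene symbols were removed, and symbols were matched to a fixed pattern, which gave 62 genes. None had the most frequent ratio of a column (0.918 in hepatocytes, 0.932 in beta cells, 1.27 in endoderm), which recurs at 346 to 430 genes. Differences and percentiles were computed over all 24466 genes with pandas 2.3.3 and numpy 2.4.6. The differences, and not the percentiles, were checked on simulated data. Changes were planted there only in genes with ratios well above the added constant, so low ratios were not checked. Members described in full were the 6 highest and 6 lowest past the threshold in each comparison and the ends of each cell type's range. From each list of other genes up to 4 were named, and some more after their values were seen. Other members were named as members of their group. Promoter sequences and gene order came from RefSeq tables of GRCm38.p6, a build other than mm9, and the regions measured may differ from them. Counts were recomputed with other constants, thresholds, rank percentiles, scalings and filters on low ratios. The members, lists, motifs and thresholds were chosen with earlier results of these data known.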

Additional observations from a re-analysis of the deposited data

Results flagged for a closer look

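Cxcr1 and Ackr2 passed the 2-fold threshold in opposite directions in the 2 adult cell types relative to endoderm. For Cxcr1 the differences were -1.25 in hepatocytes and 1.23 in beta cells, and hepatocytes minus beta cells came to -2.48. For Ackr2 they were -1.82 in hepatocytes and 1.96 in beta cells, and hepatocytes minus beta cells came to -3.78. Each is a single pooled value per cell type, both comparisons use the same endoderm value, and the difference was not tested. After division by the most frequent ratio of each column, Cxcr1 was no longer past the threshold in hepatocytes (-0.83) and stayed past it in beta cells (1.65), whereas Ackr2 stayed past it in both (-1.43 in hepatocytes and 2.38 in beta cells).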

How the results depend on the processing

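No paired analysis was possible because the table holds 1 pooled value per cell type. Of 69 recomputed counts and medians of the members, 53 passed a fixed rule. A count passed if it stayed within 1.5 times the reported count. A median passed if it stayed inside an interval drawn from the spread of the members, which is no error across samples. In rank percentiles the rule asked only whether that interval spanned 0. Division by the most frequent ratio moved the median from -0.01 to 0.40 in hepatocytes and from 0.14 to 0.55 in beta cells. Both moves, against endoderm, passed the rule. With a constant 10 times larger, against endoderm 7 of 62 members were higher and 6 lower in hepatocytes (5.12% and 4.94% of all genes). In beta cells 7 were higher and 6 lower (6.32% and 6.85% of all genes). Against beta cells 4 were higher in hepatocytes (6.21% of all genes). At a threshold 1.5 times as large, against endoderm 8 of 62 were higher in hepatocytes (7.34% of all genes). In beta cells 6 were then higher and 5 lower (8.05% and 8.62% of all genes). Against beta cells 4 were then higher in hepatocytes (7.88% of all genes). The beta cell counts against endoderm were thus near the shares of all genes at that threshold. After division by the most frequent ratio of each column, the all-gene median was 0.38 in both comparisons with endoderm, where 24 members were then higher and 8 lower in hepatocytes (75% of the calls higher, in place of 55.6%, beside 73.4% and 48.9% over all genes). In beta cells 24 were higher and 7 lower (77.4% in place of 58.3%, beside 70.9% and 48.3% over all genes). The balance between higher and lower members therefore depends on that scaling. The calls it ended were those of Ccl6, Ccl27a, Ccr9 and Cxcr1 as lower in hepatocytes, and 3, Cxcl3 and Cxcl13 among them, as lower in beta cells. At the 90th percentile 14 members were counted in hepatocytes, 17 in beta cells and 12 in endoderm, against 10.0% of all genes, and at the median 47 in hepatocytes and 45 in beta cells. For the members described in full, 240 of 248 recomputed differences stayed past the threshold and 0 changed sign. The filter on low ratios removed Ccl17 and Cxcl13, and leaving out genes with near-identical copies removed Ccl27a, so these have no value there. The 8 differences that fell short of the threshold were Cxcl11 in hepatocytes (-0.82), Ccr1 in beta cells (0.81), and Cxcl13 and Ccr3 in hepatocytes against beta cells (0.96 and 0.74) with the larger constant, Cxcl16, Ccr3 and Cx3cl1 at the larger threshold, and Cxcr4 in rank percentiles. Without replicate values or depth, no error can be set on low ratios such as those of Cxcl1, Ccl12 and Ackr1.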

Other observations

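Some genes of the chemokine system have symbols outside the pattern, and 8 of them were listed. Pf4, the platelet chemokine CXCL4, had ratios of 3.24 in hepatocytes, 1.12 in beta cells and 1.71 in endoderm. Its neighbour Ppbp, the platelet chemokine CXCL7, had 0.88 in hepatocytes, 2.69 in beta cells and 0.55 in endoderm, and was higher in beta cells than in endoderm by 2.14. Pitpnm3, reported as a receptor of CCL18 in humans, had 1.95 in hepatocytes, 0.39 in beta cells and 1.99 in endoderm, and was lower in beta cells than in endoderm (-2.17). Gpr182, an endothelial receptor that binds chemokines without signalling, was lower in both, with 0.15 in hepatocytes and 0.11 in beta cells against 1.86 in endoderm. Both adult comparisons share the endoderm value.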
